A study of Mus musculus with 19 samples.

Results

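The prolactin gene cluster of the mouse lies on chromosome 13, and the stretch described here runs from 27 to 28.7 Mb in the NCBIM37 assembly. Its members were the 2 kb tiles of that stretch in which the input library, chromatin sequenced without immunoprecipitation, held at least 1 read. This gave 839 of the 850 tiles, out of 1327469 tiles in the whole table. Flanks of 1 Mb on either side served for comparison, with 482 of 500 tiles on the left (from 26 Mb) and 493 of 500 on the right (to 29.7 Mb) kept by the same filter.

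Prolactin is a peptide hormone of the pituitary that acts on the mammary gland, the ovary and the brain through its receptor Prlr and the kinase and transcription factor pair Jak2 and Stat5. In rodents its gene has been duplicated many times on one chromosome, and most copies are transcribed in trophoblast or in the decidua of the placenta rather than in the pituitary. Embryonic stem cells (ESCs), the pluripotent cells used here, are not a known site of expression of these genes. H3K27me3 is deposited by Polycomb repressive complex 2 and typically covers CpG-rich promoters of developmental regulators. H3K9me2 is spread broadly over silent, gene-poor chromatin, and H3K9me3 marks heterochromatin and many transposable elements. Dnmt1 copies DNA methylation to the new strand after replication, so cells without it lose methylation as they divide.

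These marks were profiled by ChIP-seq, the sequencing of DNA recovered with an antibody against the mark, in control ESCs and in conditional knockout (cKO) ESCs at day 4 and day 8 once Dnmt1 had been deleted. Each mark was profiled once per genotype at day 4 and in 2 replicates per genotype at day 8. In all, 18 ChIP libraries and 1 input library, made from control cells, were available. The labels named the genotypes Wildtype and Dnmt1 KO and the background strain E14, whereas the methods of the study described Dnmt1 loxP/loxP ESCs of strain C57BL/6, in which tamoxifen induces the Cre recombinase that deletes the gene, grown with serum and LIF. Whether the control cells carried the floxed alleles or received tamoxifen is not given in the sources used here. The day 8 libraries of a group were numbered 1 and 2. The series text calls them biological replicates, but separate cultures are not described. The methods of the study state that its ChIP-seq came from 1 measurement, for which reason no significance of enrichment was called. An SD or a p-value over these libraries therefore covers the spread between them, which may be partly technical. Their windows of 100 kb differed by more than counting noise in every group, with a chi-square per degree of freedom between 2.66 and 14.1.

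ChIP libraries held 14627174 to 26181489 reads in tiles, except the H3K9me3 cKO library of replicate 1 at day 8, which held 5669098 reads, with a median of 3 reads in a tile and 12.7% of tiles empty. The input held 19010249 reads. The deleted gene was checked at a tile inside Dnmt1 on chromosome 9, whose place was known from earlier results of these data. At day 8 that tile held 7 to 11 reads in each of the 6 control libraries, 0 reads in 5 cKO libraries and 1 read in the H3K9me3 cKO library of replicate 2. At day 4 it held 6, 8 and 9 reads in the controls and 2, 3 and 4 reads in the cKO libraries. The counts at this tile thus followed the labels, although a tile known from these same data is no independent check. The cKO libraries of day 4 still held reads there. Start tiles of 7 trophoblast regulator genes (Cdx2, Eomes and Gata2 among them) had a median H3K27me3 level of 3.82 on the log2 scale in controls. They ranged from 0.84 at Elf5 to 4.28, and Tfap2c, a further trophoblast gene chosen for this, was not measured. Those of 5 pluripotency genes (Pou5f1 and Nanog among them) had -1.26 (range -2.70 to 1.08), against -0.45 over 22367 protein-coding genes. Esrrb at 1.08 and Sox2 at -0.43 lay above that value for all genes. The H3K9me2 cKO library of replicate 2 at day 8 stood apart at several start tiles low in this mark. That of Pou5f1 held 15 reads in it and 2 or 3 reads in each other H3K9me2 library, and that of Nanog 12 against 2 to 5. Tiles of the genome at least 2-fold over the input in the day 4 H3K9me2 control were compared at day 8. There the cKO differed from control by 0.06 in replicate 1 and by -0.24 in replicate 2. Cells were measured in bulk, so fewer cells with a mark and less of the mark in each cell cannot be told apart.

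The cluster held 23 protein-coding genes of the prolactin family, 13 on the plus strand and 10 on the minus strand, and 1 other protein-coding gene, Gm11360. Its sequence was poor in GC (38.1%) and in CpG sites (10.1 per tile). The left flank was alike in both (38.1% and 10.2), whereas the right flank was richer (43.0% and 18.4), and the genome lay between at 41.8% and 16.7. No tile of the cluster held 80 or more CpG sites, a density at which a tile typically contains a CpG island, and the richest held 67. The right flank had 4 such tiles and the left flank 1. Of the 31-base words of the cluster 76.5% occurred once in the genome, against 83.0% and 90.9% in the left and right flanks, while 11.2% occurred in 50 or more copies and 1.37% were repeated inside the cluster only. Reads of low mapping quality had been discarded, so values of Prl3d1, Prl3d2, Prl3d3, Prl3a1, Prl7c1 and Prl2c1, in which 52.5 to 65.4% of the words were unique, are uncertain.

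Promoters of the family are shown because their low CpG content sets them apart from most mouse promoters. Those printed here run from 250 bases before to 50 bases after the annotated start (NCBIM37, GENCODE M1), 5′ to 3′ on the strand of the gene, with every CpG dinucleotide in capitals. Prl encodes the pituitary hormone itself and lies at chr13:27149189-27149488 (plus strand). Prl3d1 (chr13:27185831-27186130, plus strand) and Prl3b1 (chr13:27334049-27334348, plus strand) encode the placental lactogens I and II, hormones of trophoblast giant cells that act through the prolactin receptor. Prl8a9 (chr13:27656424-27656723, minus strand), a placental prolactin-like protein, had the highest H3K9me2 and H3K9me3 levels in its start tile among the family genes.
Prl: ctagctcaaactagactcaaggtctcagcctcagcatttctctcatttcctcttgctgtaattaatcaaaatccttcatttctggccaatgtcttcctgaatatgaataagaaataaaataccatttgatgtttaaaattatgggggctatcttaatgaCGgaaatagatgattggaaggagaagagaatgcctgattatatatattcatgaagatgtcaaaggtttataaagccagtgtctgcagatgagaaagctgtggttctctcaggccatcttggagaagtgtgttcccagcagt
Prl3d1: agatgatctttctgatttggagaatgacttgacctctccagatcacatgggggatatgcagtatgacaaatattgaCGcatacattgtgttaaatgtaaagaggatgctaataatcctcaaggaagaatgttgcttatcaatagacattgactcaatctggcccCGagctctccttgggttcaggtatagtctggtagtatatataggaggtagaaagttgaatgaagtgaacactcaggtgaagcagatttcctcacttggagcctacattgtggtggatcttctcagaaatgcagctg
Prl3b1: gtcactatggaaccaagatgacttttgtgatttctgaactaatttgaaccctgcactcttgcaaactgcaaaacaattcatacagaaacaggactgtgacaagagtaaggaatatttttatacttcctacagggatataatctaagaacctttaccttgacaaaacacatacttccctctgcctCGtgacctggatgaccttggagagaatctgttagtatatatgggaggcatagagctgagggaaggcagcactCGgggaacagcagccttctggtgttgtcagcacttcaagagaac
Prl8a9: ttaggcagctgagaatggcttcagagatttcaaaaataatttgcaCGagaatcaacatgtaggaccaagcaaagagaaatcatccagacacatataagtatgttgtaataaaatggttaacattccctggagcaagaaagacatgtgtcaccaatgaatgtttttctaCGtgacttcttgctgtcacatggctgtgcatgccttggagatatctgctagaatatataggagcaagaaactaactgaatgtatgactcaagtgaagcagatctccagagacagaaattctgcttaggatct

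Prl had 1 CpG in these 300 bases and the other promoters shown had 2 each. Over the 23 family promoters the median was 2 CpG sites (range 0 to 5) at a GC content of 40.3%, whereas 22362 promoters of all protein-coding genes had a median of 11 at 55%. Short words of general interest were counted on both strands. TATAAA, the core of the TATA box, occurred in 6 of 23 family promoters (26.1%) and in 13.4% of all promoters. AGATAA, a form of the motif bound by GATA factors, occurred in 9 of 23 (39.1%) against 10.3%, and TATNCAT, a core found in sites of the pituitary factor Pou1f1, in 6 of 23 (26.1%) against 8.07%. Prl, Prl3a1 and Prl8a6 held both TATAAA and TATNCAT. The family promoters were AT-rich, as were these words, and a match does not show that a factor binds. Aligned base by base without gaps, pairs of family promoters shared a median of 26.7% of positions, and the closest pair, Prl8a8 and Prl8a1, shared 49%.

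Levels over the whole cluster were compared first. They are given as the log2 of observed over expected reads, summed over the member tiles. On this scale the average tile of the genome with an input read lay at -0.28 in every library, the result of the way the expected number had been set, and the input lay at -0.26 over the cluster. The cluster was low in H3K27me3 and near the genome average in H3K9me2 and H3K9me3.

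For H3K27me3 the cluster measured -0.88 in the day 4 control, -0.85 in the day 4 cKO, -0.98 and -0.81 in the day 8 controls and -0.87 and -0.60 in the day 8 cKO libraries. All 6 values lay below the genome average, with differences from -0.70 to -0.32. For H3K9me2 the same order of libraries gave -0.20, -0.25, -0.04 and -0.21, and then -0.23 and -0.35. Replicate 1 of the day 8 controls was the highest and replicate 2 of the day 8 cKO the lowest, and the other 4 libraries lay close together. For H3K9me3 it gave -0.23, -0.31, -0.23 and -0.11, and then -0.45 and -0.41. Here the cKO libraries of day 8 were both below the control libraries of either day. Between 3395 and 17670 reads stood behind each of these values, with a counting SD of 0.011 to 0.025 on the log2 scale, which covers counting error only.

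**Figure D1:**
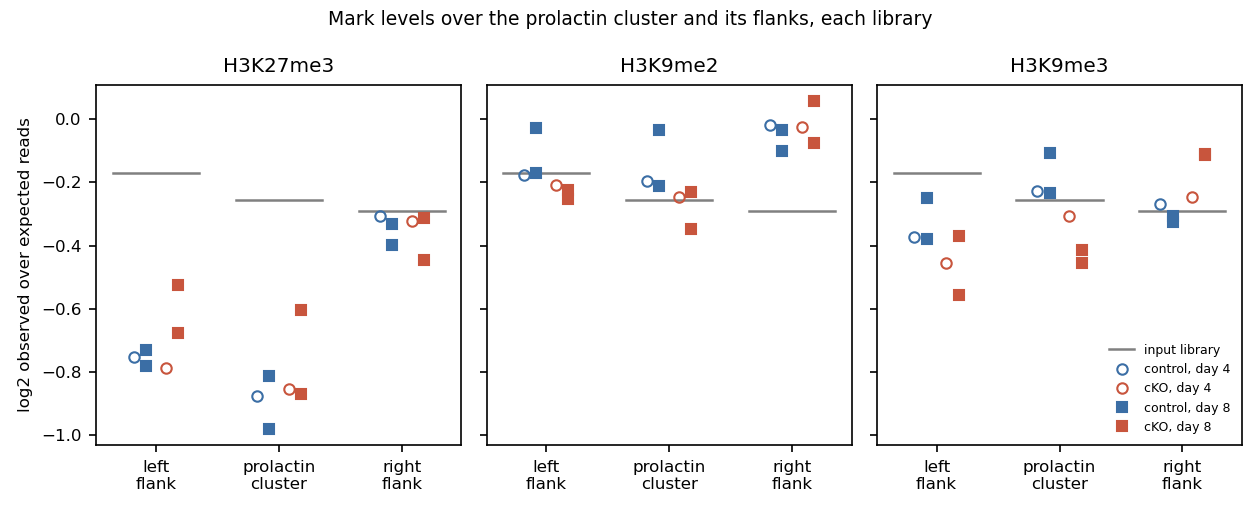
Log2 observed over expected reads, summed over the tiles of the left flank, the prolactin cluster and the right flank, with 1 point for each library, open circles for day 4, filled squares for day 8, blue for control, red for cKO and a grey line for the input. The cluster sits between -0.98 and -0.60 in H3K27me3, below its input at -0.26, and the day 8 cKO libraries of H3K9me3 (-0.45 and -0.41) lie below all controls.

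Against its flanks the cluster was lower in H3K27me3 in 6 of 6 libraries, by 0.32 on average (SD 0.11, range -0.44 to -0.12). An exact sign-flip permutation test over the 6 libraries, two-sided, gave p = 0.031, the smallest p-value that 6 libraries can give, and 0.094 after Benjamini-Hochberg adjustment over the 3 marks. After each library had been corrected for the median of tiles of equal GC content, the difference was -0.11 (exact permutation p = 0.063). The difference therefore did not pass the adjusted threshold of 0.05, which this design cannot pass for 1 mark alone. The input differed by -0.03 over the same tiles. In H3K9me2 the difference was -0.11 (SD 0.07), below 0 in 5 of 6 libraries (exact permutation p = 0.063, adjusted 0.094), and in H3K9me3 it was 0.02 (SD 0.14, p = 0.78 by the same exact test). Those 6 libraries of a mark come from both genotypes and both days and are not replicates of 1 condition.

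The flanks themselves were unlike each other. Against the left flank, which has the GC content of the cluster, the difference was -0.12 (SD 0.06) in H3K27me3 and -0.03 (SD 0.03) in H3K9me2, below 0 in 6 of 6 libraries and past the threshold in both (exact permutation p = 0.031, adjusted 0.047). In H3K9me3 it was 0.11 (SD 0.08), above 0 in 5 of 6 libraries (exact permutation p = 0.063). The input itself differed by -0.08 between cluster and left flank, and after subtraction of that difference H3K9me3 stood 0.19 above the left flank, in 6 of 6 libraries (exact permutation p = 0.031, adjusted 0.094), whereas H3K27me3 stood at -0.04 (p = 0.25 by the exact test). H3K9me2 then stood at 0.05, above 0 in 5 of 6 libraries (exact permutation p = 0.063, adjusted 0.094), so its direction turned and neither of the calls against the left flank held after the subtraction. Against the right flank, which has CpG-rich tiles, H3K27me3 was lower by 0.48 (SD 0.17). The H3K27me3 difference was thus several times larger against the right flank than against the left.

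Single tiles above the input were few for H3K27me3. Of the 839 tiles, 11 (1.31%) were at least 2-fold over the input in the mean of the controls, against 9.08% of the genome. For H3K9me2 there were 52 (6.20%, genome 7.51%) and for H3K9me3 78 (9.30%, genome 8.00%). Only the share for H3K9me3 was above that of the genome.

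Start tiles of the family genes, the tiles that hold their annotated starts, were measured next. Over the 23 start tiles the median control level of H3K27me3 was -1.06, that of H3K9me2 0.02 and that of H3K9me3 -0.29. All protein-coding genes had medians of -0.45, -2.31 and -1.47. Start tiles of the family were thus higher than those of all genes in the H3K9 marks, by more than 1 log2 unit, and lower in H3K27me3. The average tile of the genome lay at -0.28 in both H3K9 marks, near the family median of H3K9me3 and below that of H3K9me2. These medians were not made relative to the input. Start tiles of the family held a median of 8 CpG sites (2 to 18), against 52 in the start tiles of all genes. Prl itself stood at -0.45 for H3K27me3, 0.24 for H3K9me2 and -0.57 for H3K9me3, with an input of -0.04. The highest H3K27me3 start tile, that of Prl8a2, held 14, 20 and 26 reads in the controls of day 4 and day 8 and 17, 11 and 24 reads in the cKO libraries, with 12 in the input. For the start tile of Prl8a9 the H3K9me2 counts were 18, 40 and 18 in controls and 24, 19 and 20 in cKO libraries, with 15 reads in the input. In both tiles the counts of control and cKO libraries overlapped. Reads are given as counted, and libraries differ in depth, whereas every change below is relative to depth.

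Deletion of Dnmt1 was then compared with the control. Libraries of the same day and number are set side by side as pairs, although nothing in the labels ties them together. Mean changes do not depend on this pairing, whereas SDs over pairs and counts of all 3 pairs do. Over the cluster, H3K9me3 was lower in the cKO at day 8 by 0.22 and 0.31 on the log2 scale (replicate 1 and replicate 2, mean -0.26, SD 0.06), which left 83.4% of the control level. At day 4, with 1 library against 1, it was lower by 0.08. H3K9me2 was lower at day 8 by 0.19 and 0.14 (mean -0.17, SD 0.04, 89.2% of control) and by 0.05 at day 4. H3K27me3 was higher at day 8 by 0.11 and 0.21 (mean 0.16, SD 0.07, 112% of control) and by 0.02 at day 4. The percentages are of reads relative to depth, at levels near or below the input. Over the 3 libraries of a genotype, the mean log2 level over the input was 0.07 in control and -0.14 in cKO for H3K9me3. It was 0.11 and -0.02 for H3K9me2, and -0.63 and -0.52 for H3K27me3. For each mark the day 4 difference had the sign of the day 8 difference and was smaller. These sums were not tested, since an exact permutation test of 2 libraries against 2 cannot give a p-value under 0.333. With 1 library left out, the H3K9me3 change at day 8 ran from -0.33 to -0.20, and without the shallow library it was -0.24. The H3K9me2 change ran from -0.25 without control replicate 2 to -0.08 without control replicate 1, and was -0.11 without the cKO library that stood apart. The H3K27me3 change ran from 0.03 without cKO replicate 2 to 0.29 without cKO replicate 1, with 0.08 and 0.24 without control replicates 1 and 2. Each change kept its sign, while single libraries moved the size of those in H3K27me3 and H3K9me2 by more than 1.5 times.

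The flanks changed as well, and in opposite directions for H3K9me3. In the left flank the H3K9me3 difference at day 8 was -0.18 and -0.12, while in the right flank it was 0.19 and 0.22. Against both flanks together the cluster had a change of -0.24 and -0.36 (mean -0.30, SD 0.08), against the left flank of -0.04 and -0.19 (mean -0.11, SD 0.10), and against the right flank of -0.41 and -0.52 (mean -0.47, SD 0.08). The distance from the left flank was about as large as the SD of the pairs, and that from the right flank several times larger. For H3K9me2 the change against both flanks was -0.13 (SD 0.07), and against the left flank alone it was -0.03 (SD 0.04). The left flank itself changed by -0.14 in H3K9me2 at day 8. For H3K27me3 the change was 0.10 (SD 0.06) against both flanks and 0.00 (SD 0.00) against the left flank alone.

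GC content moved with these changes. Over the 17 windows of 100 kb in the cluster, the correlation of the day 8 change with GC content was r = 0.73 for H3K9me3, 0.81 for H3K9me2 and 0.19 for H3K27me3. Over the 37 windows with the flanks it was 0.88, 0.81 and -0.45. These are descriptions across neighbouring windows that share their libraries and carry no p-value. Once each library had been corrected for the median of tiles of equal GC content, the day 8 change over the cluster was -0.15 (SD 0.07) for H3K9me3, -0.09 (SD 0.05) for H3K9me2 and 0.12 (SD 0.01) for H3K27me3. The left flank then stood at -0.01 and the right flank at 0.13 for H3K9me3. For H3K9me2 they stood at -0.05 and 0.06, and for H3K27me3 at 0.10 and -0.06. In H3K27me3 the left flank was thus close to the cluster. For H3K9me3 the correction brought the left flank near 0 and made the difference of the cluster smaller.

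**Figure D2:**
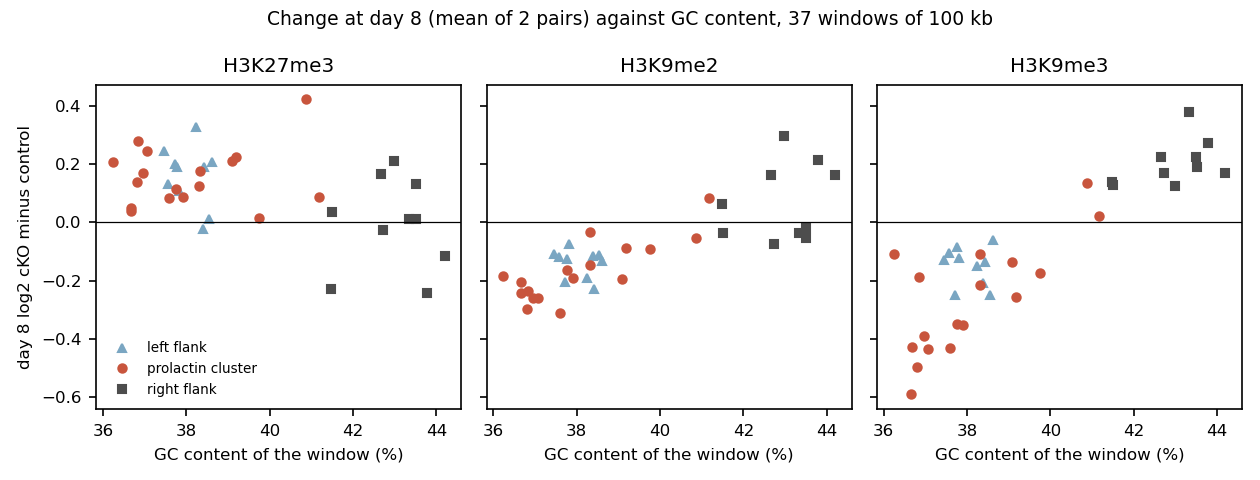
Day 8 log2 cKO minus control, mean of 2 pairs, against the GC content in percent of each of 37 windows of 100 kb, 17 in the prolactin cluster (red circles), and 20 in the left flank (blue triangles) and the right flank (grey squares). In H3K9me3 the lowest window of the cluster, at -0.59, has a GC content of 36.7%, and all windows of the right flank are above 0.

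Windows of 100 kb showed where in the cluster the change lay. For H3K9me3, 6 of the 17 windows were lower in the cKO at day 8 (limma, Benjamini-Hochberg adjusted p under 0.05 over all windows of the genome) and 0 were higher. Genome-wide 9.96% of 25614 windows were called lower and 7.69% higher. Among 11956 windows of the genome with a GC content in the range of the cluster (36.2 to 41.2%), 17.3% were called lower, with a median change of -0.16 and 90% of them between -0.49 and 0.16. The median of the cluster windows, -0.26, lay inside that range. In the flanks 1 of 20 windows was called, the one that begins at 29.3 Mb, which was higher by 0.38 (adjusted p = 0.030 by limma). After the GC correction, or with either day 8 control library left out, 0 of the 17 windows were called.

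The 6 windows begin at 27.2, 27.5, 27.6, 27.7, 27.8 and 28.1 Mb. Lowest of all was the one at 27.7 Mb, which holds the starts of Prl7b1, Prl7a1 and Prl7a2, placental members of the family, with 0.25 in the day 4 control, 0.03 in the day 4 cKO, 0.12 and 0.32 in the day 8 controls and -0.41 and -0.33 in the day 8 cKO libraries (change -0.59, SE 0.10, adjusted p = 0.021 by limma). Its mean control level, 0.23, was the second highest of the cluster, and both cKO libraries of day 8 lay below every control. Windows near the right edge did not follow. The one at 28.5 Mb changed by 0.13 (SE 0.09) and the last one, at 28.6 Mb, by 0.02 (SE 0.11) in H3K9me3.

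All 3 pairs of libraries moved down in 14 of 17 windows for H3K9me3, against 30.2% of windows of the genome. For H3K9me2 this held in 11 of 17 windows, against 28.2%, and for H3K27me3 all pairs moved up in 8 of 17, against 31.1%. In the flanks all pairs moved down in 7 of 20 windows for H3K9me3 and 7 of 20 for H3K9me2, each in the left flank. For H3K27me3 all pairs moved up in 5 of 20 flank windows. The medians of the day 8 change over the cluster windows were -0.26, -0.19 and 0.14, against -0.02, -0.03 and 0.06 over all windows. Windows of the genome in the GC range of the cluster had medians of -0.16, -0.12 and 0.09. By limma 0 of 17 windows were called for H3K9me2 and 0 of 17 for H3K27me3, with 0% called genome-wide in either mark. At an unadjusted p under 0.05 there was 1 of 17 member windows in each, against 12% of all windows for H3K9me2 and 11.8% for H3K27me3. By limma-voom 0 of 17 were called in either, with 0% and 0.0312% called genome-wide. Across the 17 windows the day 8 changes of H3K9me2 and H3K9me3 had r = 0.77, those of H3K27me3 and H3K9me3 r = 0.50 and those of H3K27me3 and H3K9me2 r = 0.06. Over the 37 windows with the flanks the same pairs of marks had r = 0.78, -0.28 and -0.40, so both relations with H3K27me3 depended on which windows were taken. Libraries of different marks share no reads, but neighbouring windows are alike in composition.

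**Figure D3:**
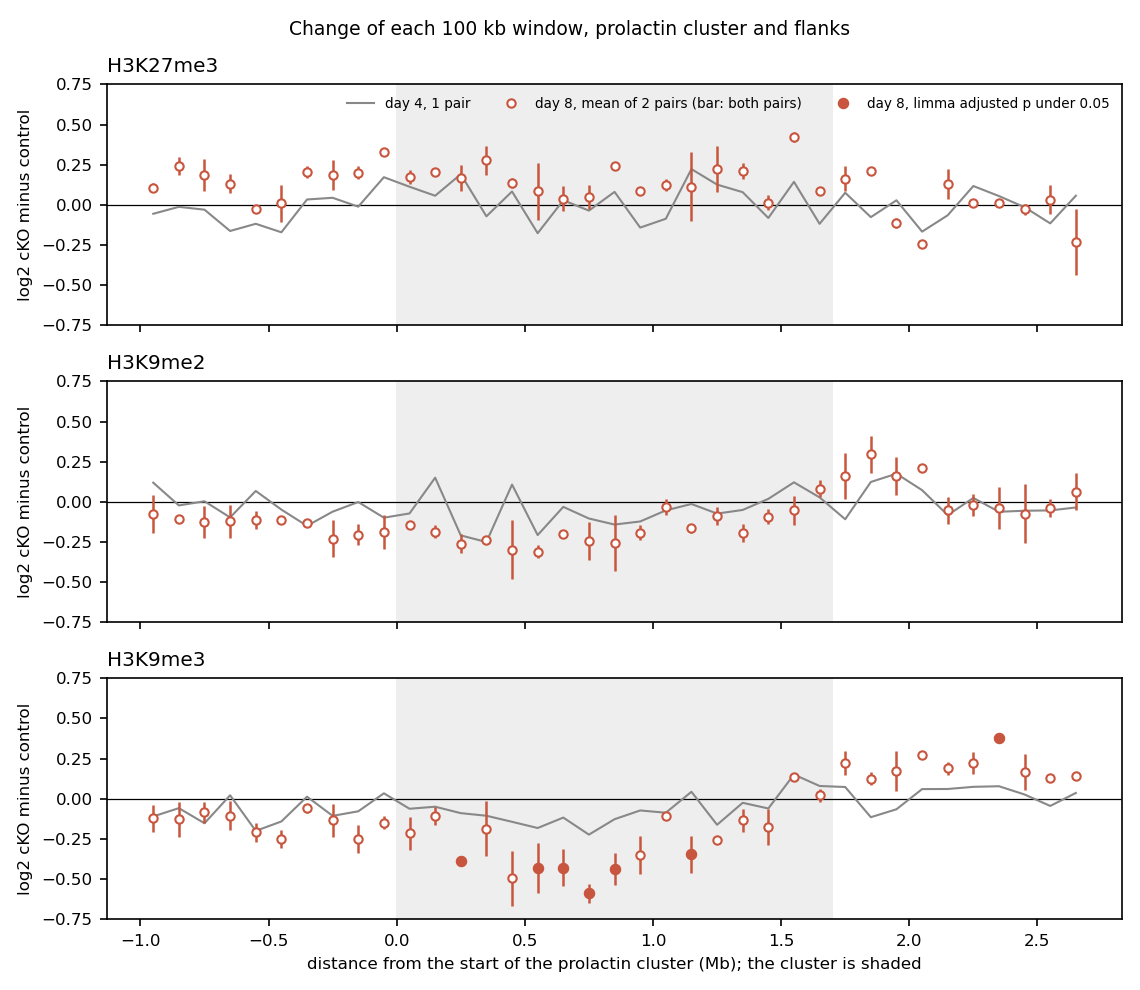
Log2 cKO minus control in windows of 100 kb against the distance from the start of the cluster in Mb, with the cluster shaded, a grey line for day 4 (1 pair), circles for the mean of the 2 pairs at day 8, bars that span both pairs, and filled circles for windows past an adjusted p of 0.05 by limma. The 6 filled circles inside the cluster are all in the H3K9me3 panel, the lowest at -0.59, and 1 lies in the right flank at 0.38.

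The window at 28.5 Mb had the largest H3K27me3 difference of the cluster. It measured -0.62 and -0.48 at day 4 in control and cKO, -0.74 and -0.65 in the day 8 controls, and -0.29 and -0.26 in the day 8 cKO libraries (change 0.42, SE 0.12, adjusted p = 0.34). Within it lies a CpG-rich tile for this cluster, with 46 CpG sites (28510001 to 28512000, between genes, 39903 bases from 2610307P16Rik). That tile held 37, 28 and 30 H3K27me3 reads in the controls of day 4 and day 8 and 47, 94 and 63 reads in the cKO libraries, with 8 in the input. The cKO counts were all above the control counts, and the day 8 change was 1.31 (SD 0.67, limma adjusted p = 0.61).

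The H3K27me3 tile with the largest day 8 difference lies in Prl itself, over coding sequence of the hormone (27150001 to 27152000, 23 CpG sites). It held 10, 7 and 11 reads in the controls and 11, 28 and 32 in the cKO libraries, against 18 in the input, a day 8 change of 1.68 (SD 0.52, limma adjusted p = 0.57). Only the day 8 cKO libraries stood out there, since the day 4 cKO count was like those of the controls. The next tile by size, between genes at 28392001 to 28394000, went from 6 and 4 reads to 16 and 17 (change 1.66, SD 0.28, adjusted p = 0.58). By limma no tile of the cluster was called, 0 of 839 for each mark with 0% of tiles called genome-wide. By limma-voom 2 tiles were called for H3K27me3, the CpG-rich tile between genes and the Prl tile, both higher in the cKO, against 0.105% of all tiles called higher. For the H3K9 marks limma-voom called 0 tiles of the cluster, with 0.000956% called genome-wide for H3K9me2 and 0.0386% for H3K9me3. At an unadjusted p under 0.05 there were 60 tiles for H3K27me3 (7.15%, against 7.66% of all tiles), 22 for H3K9me2 (2.63%, against 5.68%) and 55 for H3K9me3 (6.56%, against 6.24%). All 55 of the last were lower in the cKO, and 18 of the 22 for H3K9me2, whereas 10 of the 60 for H3K27me3 were lower. The share of all tiles lower at that p-value was not counted, so these directions cannot be called particular to the cluster. Genome-wide, H3K9me3 tiles called higher and lower numbered 5 and 102 by limma with a variance trend, and 219 and 266 by limma-voom.

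Genome-wide the H3K27me3 contrast between marked and unmarked tiles was smaller in the cKO. Tiles at least 2-fold over the input in the day 4 control library, 123478 in the genome, changed by -0.25 (SD 0.06) at day 8 and the other tiles by 0.09 (SD 0.01). In the cluster the 14 tiles chosen in this way changed by 0.54 (SD 0.17) and the other 825 by 0.15 (SD 0.08). Without the CpG-rich tile at 28510001 the remaining 13 changed by 0.32 (SD 0.01). The 14 tiles measured -0.63 and -0.58 in the day 8 controls, below the genome average of -0.28. In the flanks 50 such tiles changed by -0.35. The part of this genome-wide shift in the H3K27me3 difference of the cluster was not tested.

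Tiles with the most H3K9me3 came next. The highest in controls lay between genes at 28058001 to 28060000, with 60, 93 and 60 reads in the controls and 52, 27 and 75 in the cKO libraries, where the 27 reads come from the shallow library and the input had 9. Relative to depth this tile changed by 0.13 (SD 0.26) at day 8. The next ones, at 28428001 to 28430000 and at 27538001 to 27540000, the latter with 42 CpG sites and 7444 bases from Prl8a6, changed by -0.44 (SD 0.34) and -0.03 (SD 0.12). As a group, the 85 tiles of the cluster at least 2-fold over the input in the day 4 control changed by -0.10 and -0.27 at day 8 (mean -0.18, SD 0.12), and the 754 other tiles by -0.25 and -0.31 (mean -0.28, SD 0.05). The pairs of both kinds of tile overlapped. Lowest among single tiles was the change at 27742001 to 27744000, 6825 bases from Prl7a2, with 34, 31 and 27 reads in controls and 27, 1 and 14 in cKO libraries (-2.09, SD 1.61, adjusted p = 0.77).

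For H3K9me2 the highest control level lay at 28232001 to 28234000, 353 bases from Prl5a1, with 23, 36 and 26 reads in the controls and 25, 25 and 21 in the cKO libraries, a day 8 change of -0.55 (SD 0.35). Among the lowest changes, a tile 17286 bases from Prl2b1, at 27500001 to 27502000, went from 31 and 16 reads to 8 and 9 (-1.52, SD 0.29, adjusted p = 0.85). The largest positive change was in a tile at 27638001 to 27640000 that went from 15 and 1 reads to 14 and 17, so that 1 control library set its value.

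Family genes were then measured over their bodies, 3 to 8 tiles each. None of the 23 was called for any mark by limma, with 0% of genes called genome-wide and lowest adjusted p-values of 0.25, 0.74 and 0.45 for H3K27me3, H3K9me2 and H3K9me3. At an unadjusted p under 0.05 there were 4, 0 and 4 of the 23 genes, against 18%, 4.47% and 11.1% of all genes. By limma-voom 0, 0 and 1 were called, with 0.163% and 0% called genome-wide for H3K27me3 and H3K9me2 and 1.82% called lower for H3K9me3. For H3K9me3 the day 8 mean was lower in the cKO in 19 of 23 genes (median -0.35, all genes 0.03). For H3K9me2 it was lower in 21 of 23 (median -0.27, all genes 0.27), and for H3K27me3 higher in 15 of 23 (median 0.16, all genes -0.12). The H3K9me2 values include the cKO library that stood apart, which was raised at several start tiles low in this mark. With GC correction the H3K9me3 mean was lower in 12 of 23 genes and higher in 11 (median -0.03, all genes 0.01), the H3K9me2 mean lower in 17 (median -0.08, all genes -0.04) and the H3K27me3 mean higher in 14 (median 0.10, all genes -0.05). All 3 pairs moved down in 6 of 23 genes for H3K9me3, where 14.9% of all genes did so, and in 7 of 23 for H3K9me2, where 7.49% did. For H3K27me3 all pairs moved up in 8 of 23, against 17.4%. Genes of the cluster are neighbours with similar sequence and do not count as independent.

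**Figure D4:**
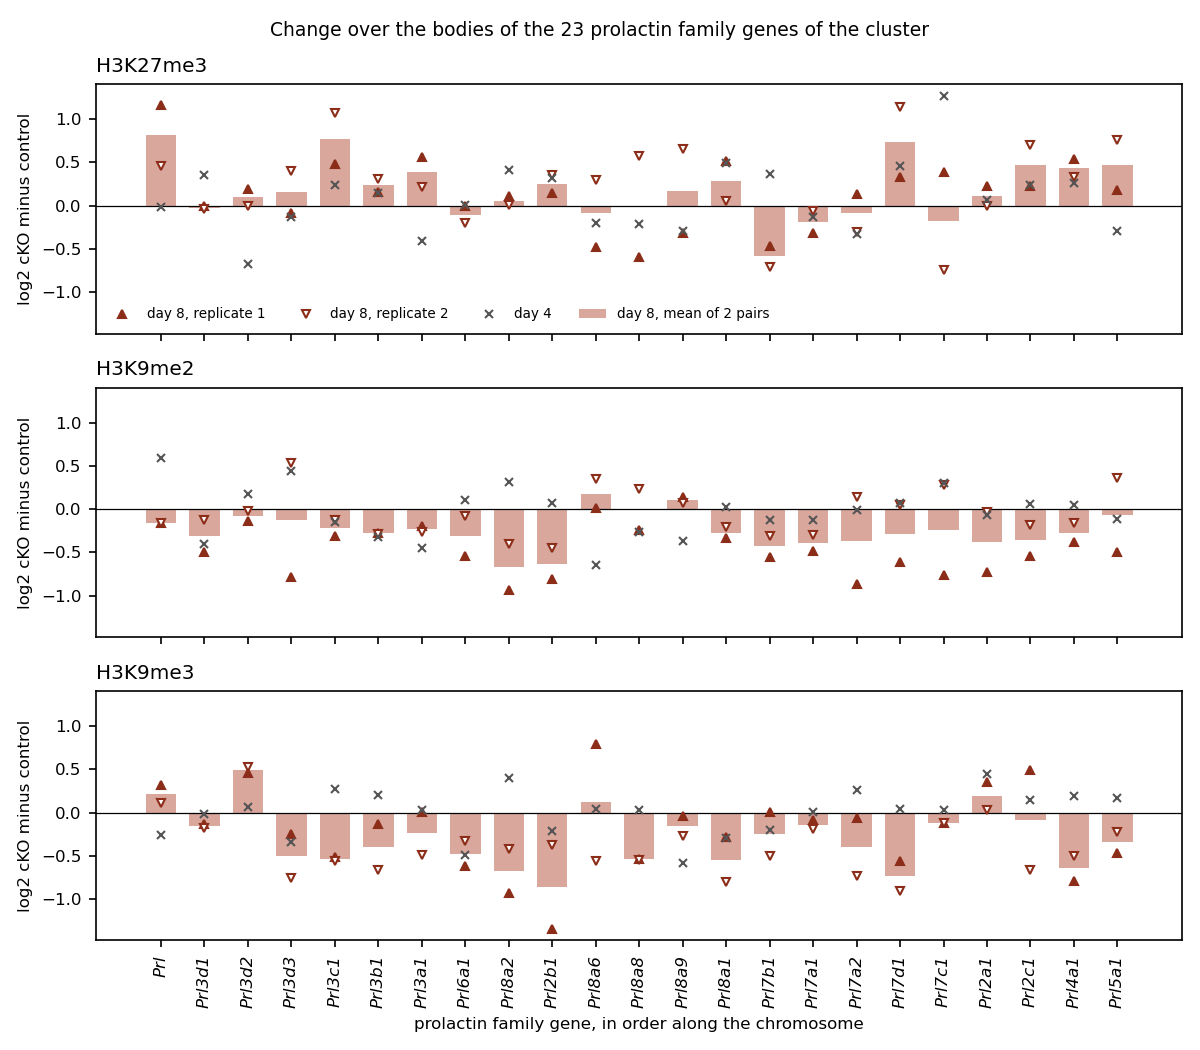
Log2 cKO minus control over the bodies of the 23 prolactin family genes in their order along the chromosome, for each mark, with bars for the day 8 mean of 2 pairs, triangles for the 2 day 8 pairs and crosses for day 4. Most bars point down in H3K9me2 (21 of 23) and H3K9me3 (19 of 23), where GC correction, not applied in the plot, leaves 17 and 12, and the pairs of a gene often differ by as much as the bar is long.

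Prl, the pituitary hormone (ENSMUSG00000021342, 27149439 to 27157073, plus strand), had 48, 30 and 56 H3K27me3 reads in the controls of day 4 and day 8 and 40, 66 and 91 in the cKO libraries. Its day 8 change of 0.81 (SD 0.50, limma adjusted p = 0.28) was the highest of the family but did not pass the test, with -0.02 at day 4. It was 0.42 without control replicate 1 and 1.21 without control replicate 2. H3K9me2 over Prl changed by -0.16 (SD 0.00) at day 8 and by 0.60 at day 4. H3K9me3 changed by 0.21 (SD 0.15), one of 4 family genes with a day 8 mean above 0 in this mark.

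Placental lactogens were nearer to 0 in H3K27me3. Prl3d1 had 25, 28 and 34 H3K27me3 reads in the controls and 27, 27 and 39 in the cKO libraries, and its day 8 change was -0.02 (SD 0.02). In H3K9me3 it changed by -0.15 (SD 0.03), with 6 reads in the shallow library. Prl3b1 changed by 0.24 (SD 0.11) in H3K27me3, by -0.28 (SD 0.00) in H3K9me2 and by -0.40 (SD 0.38) in H3K9me3, from 45 and 62 H3K9me3 reads to 12 and 39. With GC correction the H3K9me2 and H3K9me3 changes of Prl3b1 were -0.08 and -0.03. The other copies of Prl3d1 were low in the H3K9 marks. Prl3d3 had the lowest control level of H3K9me2 (-0.98) and Prl3d2 that of H3K9me3 (-1.13), where it also had the highest day 8 change (0.49, SD 0.05, adjusted p = 0.45), from 20 and 24 reads to 8 and 35. Their unique share was 59.5 and 59.2%.

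Prl7d1 encodes the proliferin-related protein, a placental inhibitor of blood vessel growth. It had 69, 70 and 79 H3K9me3 reads in the controls and 90, 14 and 42 in the cKO libraries, a day 8 change of -0.73 (SD 0.25, limma unadjusted p = 0.011, adjusted 0.45). Both day 8 pairs were lower in the cKO and the day 4 pair was not (0.04). This was the gene called by limma-voom (-0.79, adjusted p = 0.033). In H3K27me3 it moved the other way, from 31 and 29 reads to 38 and 76 (0.74, SD 0.57, adjusted p = 0.27), with a range of 0.43 (without cKO replicate 2) to 1.04 when 1 library was left out.

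Proliferin itself, Prl2c2, lies outside the cluster with Prl2c3 and Prl2c5, 3 family genes near the start of the same chromosome. Prl2c2 had 28 and 31 H3K9me3 reads in the day 8 controls and 4 and 19 in the cKO libraries, a change of -0.82 (SD 0.17, adjusted p = 0.45). All 3 outside genes had a day 8 mean below 0 in H3K9me3 (-0.23 to -0.82), and none was called for any mark. They are near-identical copies, so their reads are uncertain.

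Prl8a2, the decidual prolactin-related protein, had the lowest day 8 change of H3K9me2, from 88 and 50 reads to 39 and 53 (-0.67, SD 0.38, adjusted p = 0.74), and its H3K9me3 changed by -0.68 (SD 0.37). Prl4a1, a prolactin-like protein of the placenta, changed by 0.44 (SD 0.15) in H3K27me3, -0.27 (SD 0.15) in H3K9me2 and -0.65 (SD 0.21) in H3K9me3. The first of these had the same sign in all 3 pairs. Prl6a1, a further placental member, changed by -0.10 (SD 0.14), -0.31 (SD 0.33) and -0.47 (SD 0.21). Its H3K9me3 counts were 63, 53 and 65 in the controls and 57, 10 and 52 in the cKO libraries, and it was lower in all 3 pairs. With GC correction the H3K9me3 day 8 change was -0.31 for Prl8a2, -0.28 for Prl4a1 and -0.10 for Prl6a1. It was then -0.36 for Prl7d1 and -0.45 for Prl2c2, whereas Prl stood at 0.59 and Prl3d1 at 0.22.

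In controls the highest H3K27me3 level was that of Prl2a1 (-0.28) and the lowest that of Prl3a1 (-1.65), and the lowest day 8 change was that of Prl7b1, from 47 and 67 reads to 33 and 48 (-0.59, SD 0.18, adjusted p = 0.27). Prl3c1 had the highest control level of both H3K9me2 (0.15) and H3K9me3 (0.10), each below its input of 0.22. These rankings of control levels were not made relative to the input. The highest H3K9me2 change was that of Prl8a6 (0.18, SD 0.24). For H3K9me3 the lowest change was that of Prl2b1 (-0.86, SD 0.68, adjusted p = 0.54), which rested on 3 reads in the shallow library against 29 in its control, while replicate 2 had 39 reads in the control and 30 in the cKO. Without the shallow library it was -0.19, and without cKO replicate 2 it was -1.54. By subfamily the H3K9me3 day 8 median was -0.54 over 5 Prl8 genes, -0.32 over 6 Prl3 genes, -0.25 over 5 Prl7 genes and -0.09 over 3 Prl2 genes, and the ranges of these groups overlapped.

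Genes of prolactin signalling lie elsewhere in the genome. Of 11 genes (the receptors Prlr and Ghr, the hormone Gh, Jak2, Stat5a, Stat5b, the feedback inhibitors Cish and Socs2, the pituitary factor Pou1f1, and the prolactin-releasing hormone Prlh and its receptor Prlhr) 0 were called for any mark by limma, with lowest adjusted p-values of 0.26, 0.74 and 0.45. H3K9me3 had a day 8 mean above 0 in 9 of the 11 (median 0.21), as did 54.2% of all genes. H3K9me2 had one in 8 (median 0.40), as did 75% of all genes, with the cKO library that stood apart included. Prlr changed by 0.10 (SD 0.12) in H3K27me3, by -0.03 (SD 0.01) in H3K9me2 and by 0.13 (SD 0.07) in H3K9me3. In the right flank, Sox4, a transcription factor with a CpG-rich promoter, had 343 and 230 H3K27me3 reads in the day 8 controls and 189 and 140 in the cKO libraries (-0.88, SD 0.09, adjusted p = 0.31). Its H3K9me2 went from 6 and 3 reads to 7 and 33, so that the library that stood apart at Pou5f1 did so here as well.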

How the data were processed

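ChIP-seq reads of H3K27me3, H3K9me2 and H3K9me3 and of 1 input had been trimmed with Trim Galore and aligned with Bowtie2 by the authors (version 2.2.9 in the submitters' processing notes), with reads of mapping quality under 20 discarded. The deposited values are log2 observed over expected reads per 2 kb tile of NCBIM37, in 1 table of 1327469 tiles. The input was not subtracted. The methods describe 1 kb tiles, so that step may differ. Copies of the family share sequence, and the quality filter lowers reads there.

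In every library the values checked, those of tiles with lower counts, were whole numbers of reads within 0.02 read, with an empty tile written as 0.9 read. Tiles with higher counts were rounded without this check. Recovered reads were summed over the cluster, the flanks, windows of 100 kb and gene bodies (tiles whose centre lies in the gene), with 0.5 read added for windows and genes. Groups were compared at day 8 with limma 3.58.1 in R 4.3.3 over all tiles, windows or protein-coding genes of the genome, two-sided, with Benjamini-Hochberg adjustment and a threshold of 0.05. Levels of cluster and flanks were compared within libraries by an exact sign-flip permutation test. Fits were tested on simulated Poisson counts without variation between replicates. The real replicates differed by more than counting noise, so the simulation does not show how the fits behave on them. GC content, 31-base words and promoters came from NCBIM37 and GENCODE M1 (22367 protein-coding genes), read with Python 3.11.15.

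Genes named in full were Prl, Prl3d1, Prl3b1, Prl2c2, Prl7d1, Prl8a2, Prl4a1 and Prl6a1, and per mark those with the highest and lowest control level and day 8 change. Tiles named were, per mark, among the 3 highest in controls and the 2 with the largest changes in each direction. The members, lists and tests were chosen with earlier results of these data known. Alternatives were limma-voom on recovered reads, other pseudocounts and filters, GC correction, centring, a replicate block and leaving out each library. One promoter sequence is not reported here.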

Additional observations from a re-analysis of the deposited data

Results flagged for a closer look

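In the left flank the H3K27me3 difference between cKO and control was -0.036 on the log2 scale at day 4, whereas both pairs of day 8 were on the other side of 0, at 0.10 and 0.21. This result stands here because the days had opposite signs. The difference between days was not tested, since day 4 had 1 pair of libraries. Over the cluster the day 4 value was 0.02.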

How the results depend on the processing

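Of the results that answer a comparison, 166 values under an alternative kept their direction and side of the threshold or stayed within the replicate spread, 28 moved, 7 lost and 2 gained the threshold, and 4 reversed. GC correction and centring of windows and genes were added after seeing the data. With GC correction the day 8 change over the cluster was -0.15 in H3K9me3 and -0.088 in H3K9me2, the day 4 change in H3K9me3 was -0.043, and the H3K9me3 change minus that of the flanks was -0.21. Cluster minus flanks was then -0.11 in H3K27me3 (exact permutation p = 0.063) and -0.094 in H3K9me2 (p = 0.031 by the same exact test), and the H3K9me2 value against the left flank alone was -0.035 (exact permutation p = 0.031). As a mean of tile values, the H3K9me3 change was -0.34 and its cluster minus flank level -0.0093. Set against the right flank alone, in summed reads, the H3K9me3 level was -0.061. Centred on window medians, the H3K27me3 change was 0.075. Leaving out 1 library gave day 8 changes of 0.026 to 0.29 in H3K27me3, -0.25 to -0.078 in H3K9me2 and -0.33 to -0.20 in H3K9me3, and cluster minus flanks of -0.36 to -0.29, -0.14 to -0.095 and -0.016 to 0.056 in the same order of marks. With 5 libraries the smallest exact permutation p is 0.063, so H3K27me3 could not pass.

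Among cluster windows, H3K9me3 calls numbered 0 with GC correction, 0 with the mean of tile values and 0 to 9 with 1 library left out (0 without either control replicate, 7 without cKO replicate 1 and 9 without cKO replicate 2). Genome-wide there were 4520 (1970 higher, 2550 lower), 42 with GC correction (13 and 29), 0 with the mean of tile values, 6619 with a variance trend, 7337 by limma-voom and 26 to 8758 with 1 library left out. Centring gave 5021 (2864 higher, 2157 lower). Tiles of the cluster called in H3K27me3 numbered 1 with a variance trend and 2 by limma-voom, all higher, against 0.0624% and 0.105% of all tiles called higher. In H3K9me3 they numbered 0 to 90 with 1 library left out, 90 of them without cKO replicate 2 (89 lower, against 4.99% of all tiles called lower) and 4 without cKO replicate 1, the shallow library (all lower, against 0.422%). Genes called in H3K9me3 numbered 1 by limma-voom (lower, against 1.82% of all genes). A group left with 1 library was taken to vary like the other group. The cause of these shifts was not tested.

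The replicate numbers were not taken as pairs, with 2 pairs and no shared batch in the labels, although same-numbered libraries deviated together (r = 0.60 in H3K27me3, 0.37 in H3K9me2 and 0.25 in H3K9me3). With the replicate block, cluster windows called numbered 4 in H3K27me3 (7454 genome-wide), 0 in H3K9me2 (2110) and 9 in H3K9me3 (9318). With the replicate block and GC correction they numbered 1 in H3K27me3 (at 28.5 Mb, 0.34, limma adjusted p = 0.0047), 0 in H3K9me2 and 1 in H3K9me3 (at 27.7 Mb, -0.31, adjusted p = 0.037).

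Of the values of named genes, 366 kept their side, 1 gained the threshold and 23 reversed. With GC correction, with or without the replicate block, Prl stood at 0.047 in H3K9me2, Prl3d1 at 0.22 in H3K9me3, Prl3d3 at 0.078 in H3K9me2 and Prl8a2 at -0.0097 in H3K27me3. Prl3d1 was at 0.064 in H3K9me3 by limma-voom, Prl3d3 at 0.014 in H3K9me2 as a mean of tile values and Prl8a2 at -0.028 in H3K27me3 when centred. With 1 library left out, H3K27me3 ran from -0.11 to 0.065 for Prl3d1, -0.052 to 0.28 for Prl2a1, -0.32 to 0.12 for Prl6a1 and -0.16 to 0.27 for Prl8a2. H3K9me2 ran from -0.56 to 0.31 for Prl3d3 and -0.71 to 0.15 for Prl7d1, and H3K9me3 from -0.61 to 0.30 for Prl3d1.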
